A study of Mus musculus with 9 samples.

Results

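The genes described here are those whose colon array signal differed between mice given vanillin during a course of azoxymethane (AOM) and dextran sodium sulfate (DSS) and mice on that course without vanillin, while the course itself moved them little. They were chosen from the measured values. A probe was taken when its Sham and Mock group means differed by less than 0.5, its Vanillin and Sham means by at least 0.8, and none of the 3 Vanillin values fell among the 3 Sham values. Differences are on the log2(intensity + 16) scale, with negative intensities set to 0, and the probe had to carry a gene symbol. The choice gave 105 probes of 104 genes, of 26423 probes in all, 20377 of them with a symbol (17742 genes). The cation transporter relative Nipal3 was taken by 2 probes.

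Colon RNA of female BALB/c mice was hybridised on 9 single-colour arrays, 3 in each of 3 groups. Mock animals were untreated. Sham animals had AOM, a colon carcinogen, at 12.5 mg/kg by intraperitoneal injection on day 1. From day 8 their water held 2.5% DSS, an irritant of the colon lining, for 5 days. Plain water for 16 days followed, and then 3 additional cycles. Vanillin animals went through that same regimen and also took 100 mg/kg of oral vanillin over 91 days, so the Vanillin and Sham groups both carry AOM and DSS. A group with vanillin and no AOM or DSS is not among the samples used here. Whether each array stands for its own mouse is not stated, so a p-value reflects the spread among arrays only, and that spread may be technical.

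As background, several of the genes belong to systems with a known place in the colon. The transcription factor Atoh1 sets epithelial cells on the secretory path that leads to goblet and hormone cells, and goblet cells fill the mucus layer with mucins and lectins such as Zg16. Signalling through MAP kinases switches on immediate early genes, among them the dual-specificity phosphatases that turn the kinases off again and Zfp36 (tristetraprolin), which marks inflammatory mRNAs for decay. Interferons induce a further set of genes, to which Isg20 and the Ifit family belong. Vanillin is an aromatic aldehyde, and aldehydes are handled by dehydrogenases, reductases and conjugating enzymes.

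The arrays' median intensity lay between 319.6 and 320.1, and about 20% of probes were below 50, here called dim. Arrays of the same group correlated at 0.995 to 0.998 over all probes and arrays of different groups at 0.926 to 0.973. The number of arrays limits the precision. Markers of goblet cells and colonocytes were all above an intensity of 50 in every group mean, as a colon sample has them. Markers of other tissues differed between the groups. The summed intensity of 25 squamous epithelium genes was about 1096750 to 1102660 in Mock, 66063 to 68076 in Sham (6 of 25 with a mean under 50) and 615789 to 663033 in Vanillin. The sum of 11 skeletal muscle genes was 188349 to 197268, 4201 to 4379 and 70334 to 74417, and that of 15 adipocyte genes, given below beside G0s2, had the same order. Hair follicle and sebaceous genes (25 measured) summed to 239646 to 246148, 22021 to 23933 and 177699 to 180141. None of these genes was at 0 in a group mean. Their part in the results below was not tested.

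Of the 105 probes, 36 were higher with vanillin and 69 were lower. The median difference from Sham was 0.98 for the higher and -0.90 for the lower ones, against -0.09 over all probes. When the groups were shifted so that the median probe does not differ between them, a setting chosen after seeing the data, the same rule took 93 probes, of which 56 were higher and 37 lower. Of the original 105, 69 were among them (35 higher and 34 lower), so 35 of the 69 lower probes were lost and 1 higher one. Without Vanillin 1 the rule took 176 probes, 41 higher and 135 lower, and 98 of the 105 were among these. Of the 13065 named probes whose Sham and Mock means differed by less than 0.5, the 105 are 0.804%. A further 37 probes without a symbol met the same limits, 25 higher and 12 lower.

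**Figure D1:**
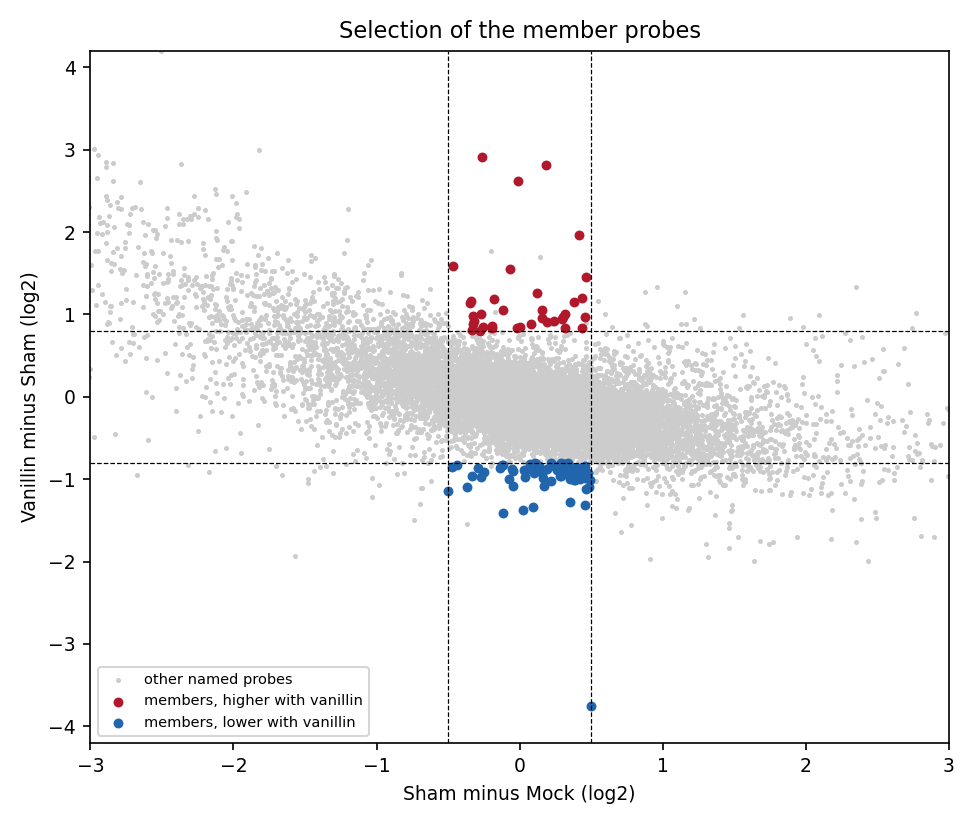
Difference of the Vanillin and Sham group means (vertical axis) against that of the Sham and Mock means (horizontal axis), both log2(intensity + 16), for the probes with a gene symbol. The 105 chosen probes, 36 higher and 69 lower with vanillin, lie at a horizontal distance under 0.5 and a vertical distance of at least 0.8; both axes use the Sham arrays, and probes beyond 3 on the horizontal or 4.2 on the vertical axis are not drawn.

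The rule limits the size of the AOM/DSS difference and does not ask for its absence. In limma's moderated test with Benjamini-Hochberg adjustment over all probes, 56 of the 105 probes passed an adjusted p of 0.05 between Sham and Mock, 43 of them higher and 13 lower in Sham. The share over all probes was 59.7%. The rule used this comparison, so nothing is read from the count. For 72 of the 105 the Sham and Mock arrays did not overlap (67.1% over all probes). Among the 69 lower probes, Sham was above Mock in 53 and below it in 16, with a median Sham minus Mock difference of 0.26. Among the 36 higher probes the numbers were 18 and 18, with a median of -0.00. The median over all probes was 0.10.

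Between Vanillin and Sham, 102 of the 105 passed the same limit, against 47.9% of all probes (15.7% higher and 32.2% lower with vanillin), and between Vanillin and Mock 98 passed, against 50.7%. Both counts follow from the rule and carry no weight as a test. The 3 that did not pass with vanillin against Sham were Kcnj11, Olfr731 and Rimbp2. The Vanillin and Mock arrays did not overlap for 99 of the probes (60.4% over all probes), and the exceptions were Kcnj11, Rimbp2, Uts2r, Olfr266, Wnt2b and Fbxo15. A difference of at least 1 was seen in 16 higher and 17 lower probes, where the shares over all probes were 3.86% and 0.723%. The rule asks for a large difference from Sham with Sham near Mock. An excess over all probes is therefore built in, here and in the overlap count with Mock, and carries no weight as a test. The typical replicate spread was small beside the Vanillin minus Sham differences, which the rule favours by asking for a large difference and no overlap. The median SD of the chosen probes on the log2 scale was 0.056 in Mock, 0.088 in Sham and 0.089 in Vanillin, against 0.061, 0.079 and 0.083 over all probes. The nearest Vanillin and Sham arrays of a probe were a median of 0.72 apart, a gap that the rule keeps above 0.

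**Figure D2:**
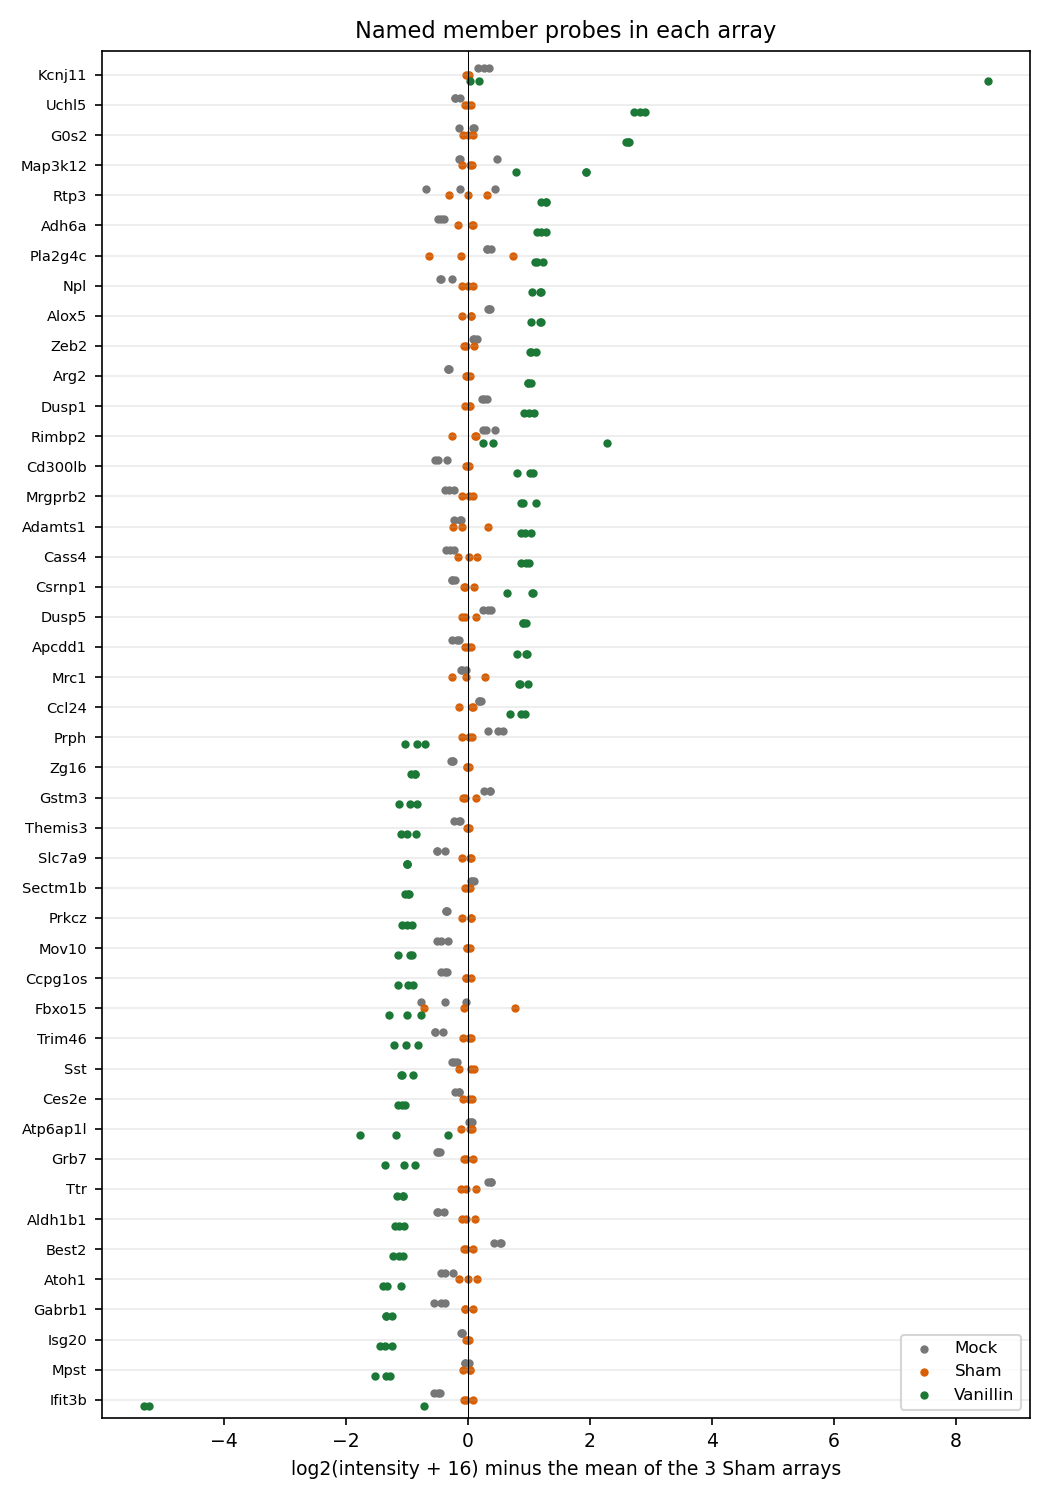
Level of 45 chosen probes in each of the 9 arrays, as log2(intensity + 16) minus the mean of the 3 Sham arrays. Mock arrays stay near Sham and Vanillin arrays depart from it, as the rule requires; in Kcnj11, Rimbp2 and Ifit3b, Vanillin 3 departs from Vanillin 1 and 2.

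The role groups used from here on were assigned after the values were seen. A direction shared within a group therefore carries no weight as a result. Among the ubiquitin genes, Uchl5 had the largest increase of the 105 after Kcnj11, whose value rests on 1 array. It encodes a deubiquitinase that docks on the proteasome and on a chromatin remodelling complex. Its intensity was 208, 207 and 219.6 in Mock, 234, 243 and 252 in Sham and 1911, 1687 and 1811 in Vanillin. Every Vanillin array was far above the Mock and Sham arrays, which lay close together, and the difference from Sham was 2.81 (SE 0.06). Its docking partner on the proteasome, Adrm1, differed by -0.10 (limma adjusted p = 0.137) and the neighbouring deubiquitinase Psmd14 by -0.06 (limma adjusted p = 0.409), neither passing the test. Of 12 core proteasome genes that are not among the 105, 0 rose, 4 fell and 8 did not pass in limma's test. Over all probes 15.7% passed as higher and 32.2% as lower, the shares to set beside this and every list count below. Uchl5 has 1 probe on the array, so no second probe bears on it. The other ubiquitin genes were lower. They were the conjugating enzyme Ube2b (-0.86, SE 0.06, and -0.73 on its other probe), the ubiquitin-like protein gene Ubl7 (-0.92, SE 0.06) and the F-box gene Fbxo15. Fbxo15 was dim, at 28, 10.6 and 18.6 in Mock, 27.1, 60.8 and 11.4 in Sham and 10.6, 6.67 and 2.33 in Vanillin. Its difference of -1.01 (SE 0.34) became -2.06 when 1 was added before the log (the pseudocount) in place of 16, and -0.43 with 64.

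G0s2 stood out in the same way. Its product inhibits the main triglyceride lipase of fat cells, and the gene is active in fat and in several other tissues. Its intensity was 3329, 3372 and 2852 in Mock, 3329, 2993 and 3144 in Sham and 19014, 19769 and 19607 in Vanillin, with all Vanillin arrays above all others and Mock and Sham mixed, a difference of 2.62 (SE 0.07). The adipocyte marker sum was 210618 to 215350 in Mock, 27999.5 to 28977 in Sham and 181125 to 188474 in Vanillin, and its part in the G0s2 difference was not tested. Other enzyme genes that were higher act on amino acids, sugars, phospholipids and alcohols. The mitochondrial arginase Arg2 had an intensity of 1209, 1221 and 1209 in Mock, 1558, 1493 and 1502 in Sham and 3013, 3134 and 3012 in Vanillin, the Vanillin arrays being highest and the Sham arrays above Mock. The sialic acid lyase Npl was higher by 1.15 (SE 0.08), the alcohol dehydrogenase Adh6a by 1.20 (SE 0.08) and Arg2 by 1.00 (SE 0.04). The phospholipase Pla2g4c was also higher, by 1.16 (SE 0.28), but its Sham arrays were far apart, at 825, 574 and 1514.

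Lower enzyme genes included several that act on sulfur compounds, aldehydes and foreign chemicals. Mpst makes hydrogen sulfide from mercaptopyruvate. It stood at 2987, 3134 and 2982 in Mock, 3177, 3172 and 2929 in Sham and 1268, 1214 and 1073 in Vanillin. Mock and Sham overlapped, and the Vanillin arrays lay well below both, with a difference of -1.37 (SE 0.07). The mitochondrial aldehyde dehydrogenase Aldh1b1 had 2848, 2872 and 3073 in Mock, 3968, 3803 and 4377 in Sham and 1841, 1769 and 1948 in Vanillin. Its Sham arrays were the highest and its Vanillin arrays the lowest, with a difference of -1.12 (SE 0.07). The carboxylesterase Ces2e was at 4646, 4647 and 4443 in Mock, 5389, 5207 and 4845 in Sham and 2499, 2439.8 and 2323 in Vanillin, lower with vanillin by the same pattern (-1.08, SE 0.06). A second Ces2e probe gave -0.32. The remaining ones were the glutathione transferases Gstm3 (-0.97, SE 0.09) and Gstm6 (-0.81, SE 0.09), the lipid droplet enzyme Hsd17b13 (-0.97, SE 0.09), the malic enzyme Me2 (-0.88, SE 0.07), the aldo-keto reductase Akr1e1 (-0.86, SE 0.05) and the fatty acid activator Acsl3 (-0.82, SE 0.06). Gstm3 and Gstm6 are neighbours in the RefSeq gene order and close paralogs, so their probes may share signal. A second, far brighter Acsl3 probe gave 0.03.

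A list of 43 genes of xenobiotic and aldehyde metabolism, of which 28 were measured, holds Gstm3 and Ces2e. Of its 26 other genes, 8 rose with vanillin, 9 fell and 9 did not pass in limma's test, with a median of -0.05 against -0.09 over all probes. The shares over all probes were 15.7% higher and 32.2% lower. The aldehyde dehydrogenase Aldh3a1 rose by 2.0 (SE 0.10, limma adjusted p = 4.05e-07) and the alcohol dehydrogenase Adh7 by 1.38 (SE 0.07, limma adjusted p = 4.12e-07). The sulfotransferases Sult1c2 and Sult1d1 fell, by 0.94 (SE 0.05, limma adjusted p = 7.60e-07) and by 0.81 (SE 0.06, limma adjusted p = 6.55e-06). These 4 lay outside the 105 because they also differed between Sham and Mock, by -3.57 for Aldh3a1, -2.57 for Adh7, -0.86 for Sult1c2 and -1.21 for Sult1d1.

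**Figure D3:**
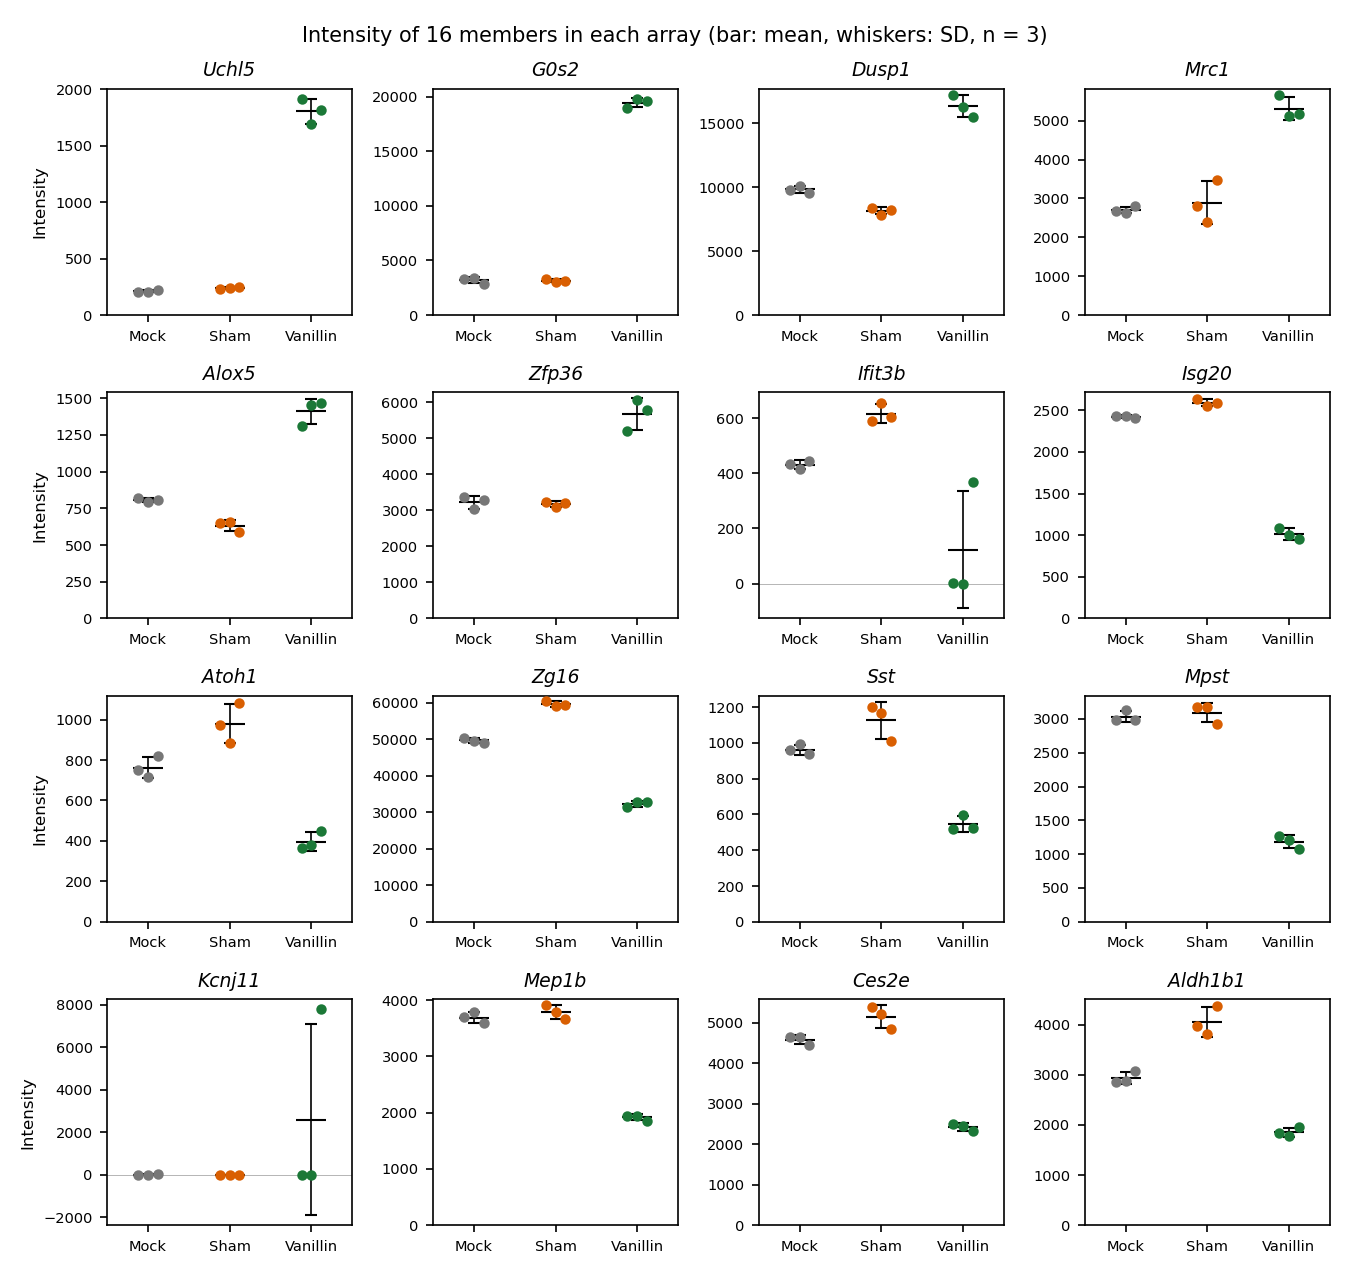
Intensity (linear axis from 0, each panel to its own scale) of 16 of the chosen genes in the 3 Mock, 3 Sham and 3 Vanillin arrays; points are arrays, and bars give the mean with its SD (n = 3). Uchl5 and G0s2 have tight Vanillin points above all others, Atoh1, Zg16 and Mpst have theirs below, and in Kcnj11 a single Vanillin point carries the mean.

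The 4 goblet cell genes among the 105 were lower with vanillin. Atoh1 had an intensity of 752, 717 and 821 in Mock, 975, 885 and 1081 in Sham and 363, 379.6 and 448 in Vanillin. Sham was the highest group, and every Vanillin array was below every Mock and Sham array, with a difference of -1.27 (SE 0.10). Zg16, a lectin-like mucus protein that binds bacteria, was at 50395, 49642 and 49027 in Mock, 60462, 59114 and 59351 in Sham and 31393, 32715 and 32850.1 in Vanillin. It was among the brightest genes, and its groups stood in the same order (-0.88, SE 0.04 for Vanillin minus Sham). Intensities stop at about 65510 on these arrays, so a change this near the top may be understated. Best2 encodes a bicarbonate channel of colonic goblet cells. It differed in its order, at 2924, 2901 and 2724 in Mock, 2137, 1934 and 1970.4 in Sham and 953, 911 and 850.4 in Vanillin, with Mock highest, Sham between and Vanillin lowest (-1.14, SE 0.06). Rep15, a Rab effector, was also lower (-0.87, SE 0.06). In whole tissue, fewer cells of a type and less RNA per cell cannot be told apart. The squamous, skeletal muscle, adipocyte and hair follicle sums given above were also higher in Vanillin than in Sham. Their part in these decreases, and in those of the hormone cell and epithelial genes below, was not tested.

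A list of 15 goblet cell markers, 14 of them measured, holds Atoh1 and Zg16. Of its other 12, 0 rose, 6 fell and 6 did not pass in limma's test at an adjusted p of 0.05, with a median of -0.28. The shares over all probes were 15.7% higher and 32.2% lower, 47.9% together. The trefoil peptide gene Tff3 fell by 0.61 (SE 0.04, limma adjusted p = 6.88e-06) and the mucin gene Muc2 by 0.50 (SE 0.05, limma adjusted p = 7.29e-05). The stress sensor Ern2 fell by 0.44 (SE 0.06) and the goblet cell transcription factor Spdef by 0.44 (SE 0.06), with limma adjusted p-values of 2.42e-04 and 4.62e-04. The summed intensity of the 14 markers was 353686 to 372462 in Mock, 471448 to 479043 in Sham and 390619 to 398074 in Vanillin.

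Hormone cell genes among the 105 were lower as well. The somatostatin gene Sst had an intensity of 959.8, 992 and 935 in Mock, 1202, 1164 and 1010.1 in Sham and 519, 597 and 524 in Vanillin, with the Vanillin arrays below the rest (-1.02, SE 0.08). Ttr, a thyroxine carrier also made in endocrine cells, was at 3093, 3112 and 3012 in Mock, 2331, 2210.4 and 2621 in Sham and 1128, 1052 and 1131 in Vanillin. There Mock was highest and Vanillin lowest, and no groups overlapped (-1.10, SE 0.07). The secretory granule protein gene Ptprn2 was lower (-0.86, SE 0.06), and a dim second probe gave -0.15. Of the 17 other enteroendocrine and tuft cell markers measured, 5 rose, 6 fell and 6 did not pass in limma's test (median 0.01). The summed markers were 29778 to 30409 in Mock, 27885 to 28406 in Sham and 26662 to 28003 in Vanillin.

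All 17 probes of absorptive and other epithelial genes among the 105 (16 genes) were lower, with differences of -0.82 to -1.09. This group was assigned after the values were seen, and 69 of the 105 probes were lower. The largest difference was in the receptor adapter gene Grb7, at 10951, 11351 and 11014 in Mock, 15269, 16395 and 14917 in Sham and 8483, 6071 and 7487 in Vanillin (-1.09, SE 0.11). Its Sham arrays were the highest and its Vanillin arrays the lowest. The brush border protease Mep1b was at 3697, 3786 and 3588 in Mock, 3913, 3797 and 3660.3 in Sham and 1945, 1948 and 1858 in Vanillin, with Mock and Sham overlapping and Vanillin below both (-0.98, SE 0.05). The polarity kinase Prkcz (-0.99, SE 0.06), the cystine transporter subunit Slc7a9 (-0.99, SE 0.06) and the intestinal THEMIS relative Themis3 (-0.98, SE 0.07) differed to a like degree. Sectm1b (-0.99, SE 0.05) and Sectm1a (-0.87, SE 0.13) are adjacent paralogs, so their probes may share signal. The tetraspanin relative Tm4sf20 (-0.93, SE 0.08), Misp3 (-0.92, SE 0.07), the junction scaffold Magi1 (-0.89, SE 0.07), Tmem82 (-0.87, SE 0.12) and the nuclear receptor Nr5a2 (-0.84, SE 0.07) follow. The last were the fucosyltransferase Fut9 (-0.83, SE 0.09), Erich4 (-0.83, SE 0.10), the villin relative Vill (-0.82, SE 0.09) and Nipal3, whose probes gave -0.87 and -0.85. A second Magi1 probe gave -0.21, and the other Vill probes gave -0.71 and -0.20. The 23 measured colonocyte markers, 0 of them among the 105, summed to 342718 to 353397 in Mock, 270765 to 272993 in Sham and 248229 to 261676 in Vanillin. Of these, 1 rose with vanillin, 17 fell and 5 did not pass in limma's test (median -0.29).

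Of the 6 genes of MAP kinase control and the immediate early response among the 105, 5 were higher and 1 was lower. Dusp1, which inactivates several MAP kinases, had an intensity of 9784, 10109 and 9563 in Mock, 8348, 7854 and 8247 in Sham and 17197, 16272 and 15477 in Vanillin. Every Vanillin array was above every Mock array, and Sham was the lowest group (1.00, SE 0.05). Dusp5, a nuclear phosphatase of the ERK kinases, was at 336, 356 and 373 in Mock, 312, 272 and 262 in Sham and 537, 538 and 562 in Vanillin, in the same order (0.92, SE 0.07). Zfp36 was at 3378, 3025 and 3283 in Mock, 3229, 3090.2 and 3218 in Sham and 5203, 6063 and 5781 in Vanillin, with Mock and Sham overlapping and Vanillin above (0.83, SE 0.07). The nuclear protein gene Csrnp1, induced early after stimulation, was higher by 0.92 (SE 0.11). The 2 MAP kinase kinase kinases stood on opposite sides. Map3k10 was lower (-0.84, SE 0.07), and Map3k12 was higher (1.55, SE 0.30) from a dim level, at 11.9, 2.33 and 2.11 in Mock, 4.89, 2.78 and 4.44 in Sham and 18.7, 60.2 and 60.8 in Vanillin. The Map3k12 difference became 3.09 with a pseudocount of 1 and 0.67 with 64.

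A list of 26 MAP kinases and their phosphatases, 25 of them measured, holds Dusp1 and Dusp5. Of its other 23, 6 rose, 6 fell and 11 did not pass in limma's test, with a median of -0.04. Over all probes, 47.9% passed in either direction. The phosphatase Dusp14 rose by 1.34 (SE 0.05, limma adjusted p = 8.58e-08) and the kinase Mapk12 by 0.80 (SE 0.05, limma adjusted p = 4.72e-06), and both were lower in Sham than in Mock (-2.37 and -2.13). Map3k5 fell by 0.74 (SE 0.07, limma adjusted p = 4.21e-05) and Mapk9 by 0.46 (SE 0.06, limma adjusted p = 2.93e-04). Of 20 immediate early genes, none of them among the 105, 8 rose, 6 fell and 6 did not pass in limma's test. Dusp1 also stands in a list of glucocorticoid-responsive genes, whose 18 others gave 7 that rose, 4 that fell and 7 that did not pass.

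**Figure D4:**
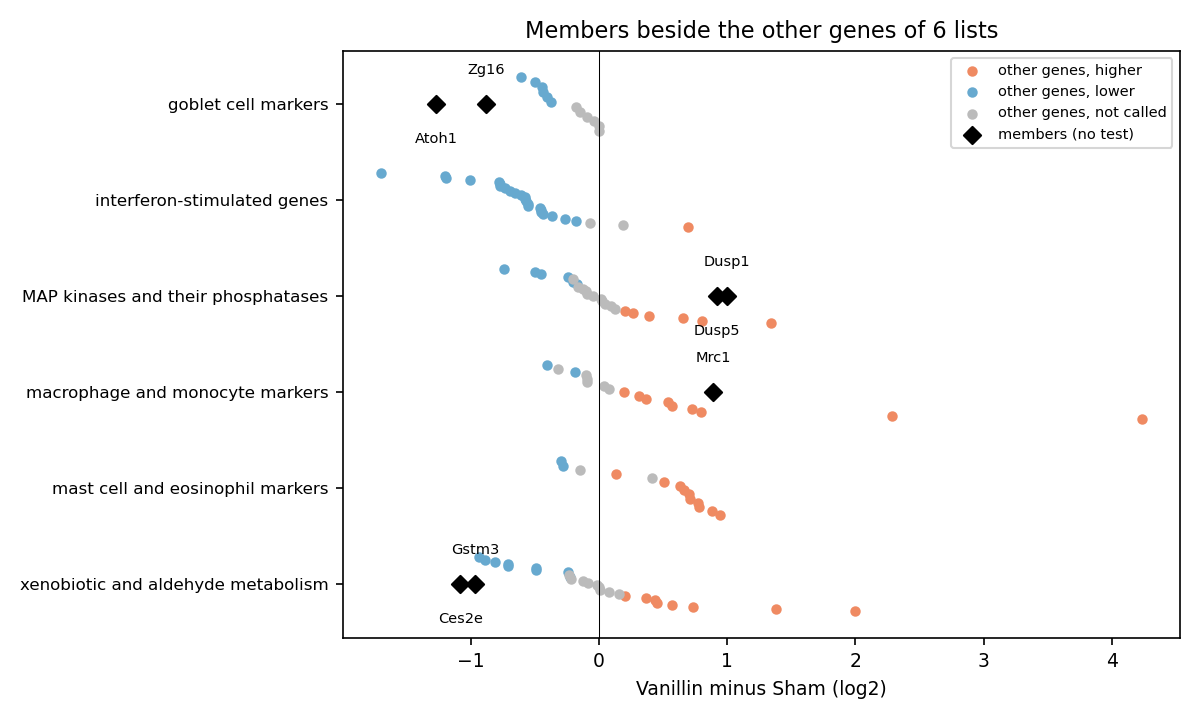
Vanillin minus Sham difference, log2(intensity + 16), of each measured gene of 6 lists, 1 point per gene by its brightest probe; black diamonds are genes of the 105. The goblet cell and interferon-stimulated genes lie mostly below 0 and the mast cell and macrophage markers mostly above, while the MAP kinase and xenobiotic lists spread to both sides.

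All 12 genes grouped as immune cell genes were higher, by 0.80 to 1.14. This group too was assigned after the values were seen, and 36 of the 105 probes were higher. Alox5, the enzyme that starts leukotriene synthesis, was at 821, 795 and 809 in Mock, 652, 654 and 591 in Sham and 1314, 1454 and 1464 in Vanillin, with Vanillin highest and Sham lowest and no overlap (1.14, SE 0.06). The macrophage mannose receptor Mrc1 was at 2673, 2629 and 2794 in Mock, 2800.0, 2396 and 3477 in Sham and 5648, 5112 and 5169.9 in Vanillin. Mock and Sham overlapped, the Sham arrays spreading widely, and every Vanillin array was above them (0.89, SE 0.12). Mrgprb2, the mast cell receptor for basic secretagogues, was at 96.6, 102 and 109.8 in Mock, 139, 121 and 132 in Sham and 301, 252 and 257 in Vanillin, with Sham above Mock and Vanillin above Sham without overlap (0.96, SE 0.08). The myeloid receptor Cd300lb showed the same order (0.97, SE 0.08), as did Stx11, a syntaxin of cytotoxic granule release (0.84, SE 0.06, and 0.71 on its other probe). In the eosinophil chemokine Ccl24, at 86.7, 86.6 and 88.7 in Mock, 78.6, 65.4 and 80.1 in Sham and 149.6, 131 and 158 in Vanillin, the Vanillin arrays were highest and the Sham arrays lowest (0.84, SE 0.08).

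The other immune cell genes were the adhesion receptor Adgre4 (0.88, SE 0.12), the orphan receptor Gpr141 (0.85, SE 0.12), the mast cell GTPase Rab44 (0.80, SE 0.07), the cytokine Il17f (0.80, SE 0.12), the scaffold gene Cass4 and the microRNA gene Mir142. Cass4 was dim, with a highest group mean under 50. Its difference of 0.94 (SE 0.08) became 1.59 with a pseudocount of 1 and 0.42 with 64, and a second probe gave 0.17. Markers of immune cell types differed in the same comparison, in both directions. The 18 macrophage and monocyte markers summed to 107621 to 110100 in Mock, 122608 to 126663 in Sham and 160586 to 167263 in Vanillin. The 14 mast cell and eosinophil markers gave 10795 to 11223, 45560 to 48689 and 74698 to 76565, and the 19 neutrophil markers 92721 to 96013, 89656 to 94617 and 150428 to 158123. The 16 B and plasma cell markers fell from Sham to Vanillin, at 76926 to 81131.5 in Mock, 124400 to 125111 in Sham and 107552 to 109253 in Vanillin. The 21 T and NK cell markers gave 13660 to 14204, 15389 to 15576 and 15961 to 17195. The part of all these markers in the differences of the 12 genes was not tested. Of the 17 macrophage markers other than Mrc1, 9 rose, 2 fell and 6 did not pass in limma's test (median 0.20), and of the 14 mast cell and eosinophil markers 2 did not pass, 2 fell and 10 rose (median 0.65). Of 29 cytokines and chemokines other than Ccl24, 9 rose, 9 fell and 11 did not pass.

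The 3 interferon-linked genes among the 105 were lower. Isg20, an exonuclease induced by interferon, was at 2434, 2433 and 2408 in Mock, 2630.3, 2549.6 and 2589 in Sham and 1089, 1007 and 948 in Vanillin. Mock was just below Sham without overlap, and Vanillin was far below both, with a difference of -1.34 (SE 0.06). Its 2 other probes gave -0.14 and 0.09, so the difference rests on 1 probe of 3. On those 2 probes Sham minus Mock was -0.55 and -0.70, in the same order. The antiviral helicase gene Mov10 was lower (-1.0, SE 0.07), and its second probe gave -0.54. Ifit3b, a member of the Ifit family that binds foreign RNA, had the largest decrease in group mean, -3.75 (SE 1.03). Its intensities were 435, 415 and 445 in Mock, 591, 657 and 604 in Sham and 0.889, -0.667 and 367 in Vanillin. The Vanillin arrays were split, with replicates 1 and 2 near 0 and replicate 3 at a level not far below Mock. Without Vanillin 3 the difference was -5.27, and without Vanillin 1 or Vanillin 2 it was -3.01 or -2.98. With a pseudocount of 1 it was -6.12 and with 64 it was -2.49. The near-identical gene Ifit3 has no named probe here, so which copy this probe measures is uncertain. Its Sham minus Mock difference of 0.499 lay just inside the limit of 0.5.

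None of the 26 measured genes of a list of interferon-stimulated genes was among the 105. Of these, 1 rose with vanillin, 23 fell and 2 did not pass in limma's test (median -0.58), and Ifit1 fell by 1.19 (SE 0.09, limma adjusted p = 7.45e-06). As a list they differ from the 105 in the course itself, with a median Sham minus Mock difference of 1.23. The 250 bases before the start of Ifit3b are shown because they hold the core of the element through which interferon acts on Ifit genes (GAAA, any 2 bases and GAAA again, searched on both strands). The letters come from RefSeq on GRCm38.p6, chr19:34607707-34607956, plus strand, 5′ to 3′. Capitals mark the 2 matches, which start 188 and 154 bases before the gene start and read as the reverse complement, with TTTC in place of GAAA.

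Ifit3b: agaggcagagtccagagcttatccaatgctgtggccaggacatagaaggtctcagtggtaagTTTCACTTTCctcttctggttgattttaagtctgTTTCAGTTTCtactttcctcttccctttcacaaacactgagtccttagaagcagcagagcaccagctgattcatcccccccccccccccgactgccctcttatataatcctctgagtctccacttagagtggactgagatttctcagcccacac

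Promoters of 75 of the 104 genes were in the RefSeq table, each from 250 bases before to 50 after the start. The element core was in 7 of them (9.33% of these genes, against 3.99% of all genes in the table and 3.44% of its 32851 promoters), which were those of Adh6a, Gstm6, Ifit3b, Mdfi, Olfr266, Olfr630 and Sst. Adh6a and Olfr630 were higher with vanillin and the rest were lower. The promoters of Isg20 and Mov10 were among the 75 and held no match to this core. The cyclic AMP response element TGACGTCA, which is its own reverse complement, was in 4 (5.33%, against 2.03% of all genes and 1.79% of all promoters), those of Dusp1, Prkcz, Sst and Ube2b. Dusp1 was higher with vanillin and the other 3 were lower. The promoters of Dusp1 and Sst are shown for this contrast, with the element in capitals, 143 and 48 bases before the start. Both are on the minus strand of GRCm38.p6, at chr17:26508473-26508722 and chr16:23890845-23891094.
Dusp1: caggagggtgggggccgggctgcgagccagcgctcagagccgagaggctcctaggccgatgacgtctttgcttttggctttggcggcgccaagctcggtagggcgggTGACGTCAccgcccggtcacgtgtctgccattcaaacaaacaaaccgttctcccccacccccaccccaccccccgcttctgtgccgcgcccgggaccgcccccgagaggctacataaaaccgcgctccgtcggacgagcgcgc
Sst: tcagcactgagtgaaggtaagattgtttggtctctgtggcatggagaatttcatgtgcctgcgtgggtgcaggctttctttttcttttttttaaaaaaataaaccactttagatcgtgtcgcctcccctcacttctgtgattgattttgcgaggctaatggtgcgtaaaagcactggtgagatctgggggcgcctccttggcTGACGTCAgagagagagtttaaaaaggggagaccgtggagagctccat
Other motifs searched on both strands were the NF-kB type (GGGA, any 4 bases and CC, in 34.7% of the 75 genes against 22.9% of all genes), TATAAA (17.3% against 15.7%), CACGTG (9.33% against 8.09%), TGANTCA (6.67% against 8.97%) and TTATGNAA (5.33% against 3.99%). The shares of all promoters were 20.7%, 13.6%, 7.15%, 7.81% and 3.38% in this order. A match is a run of letters in this window and no evidence of binding.

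The 3 microRNA genes were higher with vanillin, all from low levels. Mir598 was at 2.33, 4.56 and 0.111 in Mock, 2.33, 1.89 and 28 in Sham and 81.1, 82.1 and 72.9 in Vanillin. The Vanillin arrays were close together, and the third Sham array was apart from the other Sham arrays (1.96, SE 0.30). Mir184 was at 23.1, 9.33 and 25.8 in Mock, 10.7, 28.9 and 31.7 in Sham and 48.7, 74.1 and 70.6 in Vanillin (1.05, SE 0.26), with Mock and Sham mixed and Vanillin above. Mir142, a microRNA of blood cells, was at 14, 24.7 and 14.2 in Mock, 30.1, 19.9 and 27 in Sham and 73.1, 45.3 and 58.1 in Vanillin (0.84, SE 0.17), again with Vanillin above and the others overlapping. The RNA was amplified before labelling, so these probes need not measure the mature forms. The mature forms that RefSeq lists for Mir184 and Mir142 are shown, since they define what each gene could target, 5′ to 3′ with the seed (bases 2 to 8) in capitals. No seed is shared among these 4.
miR-184-3p: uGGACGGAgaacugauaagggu
miR-184-5p: cCUUAUCAcuuuuccagccagc
miR-142a-5p: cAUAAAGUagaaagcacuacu
miR-142a-3p: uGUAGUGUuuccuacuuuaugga

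Of the 10 mesenchymal, matrix and developmental genes, 3 were higher and 7 lower. Zeb2, a repressor of epithelial adhesion genes, was at 664, 669.6 and 694 in Mock, 596, 668 and 607 in Sham and 1274, 1295 and 1371 in Vanillin, the Vanillin arrays above all others (1.06, SE 0.06). The matrix protease Adamts1 (0.95, SE 0.13) and the Wnt inhibitor Apcdd1 (0.91, SE 0.06) were also higher. Apcdd1 stood at 1022, 966 and 1051 in Mock, 1203, 1119 and 1155 in Sham and 2034, 2254 and 2295 in Vanillin, so that Vanillin was above Sham and Sham above Mock. The lower ones were the transcription factor genes Foxd2 (-0.96, SE 0.06) and Mkx (-0.90, SE 0.05), the basement membrane gene Tinag (-0.96, SE 0.06), Mia (-0.92, SE 0.05), Mdfi (-0.89, SE 0.04, and -0.67 on its other probe), Col9a1 (-0.81, SE 0.07) and the Wnt ligand gene Wnt2b. In Wnt2b the first Vanillin array, at 307, was near the Sham arrays, and the other 2, at 141 and 173, were well below (-0.84, SE 0.22). Of 19 other Wnt targets and antagonists, 5 rose, 10 fell and 4 did not pass in limma's test.

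Of the 9 genes of neurons, channels and their receptors, 3 were higher and 6 lower. Kcnj11, the pore of the ATP-sensitive potassium channel, had the largest mean difference of the higher genes, but it comes from 1 array. Its intensities were 9.67, 8.06 and 11 in Mock, 4.89, 5.67 and 5.44 in Sham and 5.78, 8.11 and 7786 in Vanillin. Vanillin 1 and 2 were in the range of the Mock and Sham arrays, and only Vanillin 3 was bright. The difference of 2.91 (SE 1.90) was 0.10 without Vanillin 3, and a second probe gave 0.25. That second probe had means of 483 in Mock, 124 in Sham and 150 in Vanillin. Its Sham minus Mock difference was -1.84, so on it the gene was not near Mock in Sham. The standard error (SE) pools the spread of all 3 groups, and the SD of the Vanillin arrays alone was 4.86 on the log2 scale. Rimbp2, a presynaptic scaffold gene, was likewise carried by Vanillin 3, with 14, 13 and 17.4 in Mock, 10.7, 11 and 4.44 in Sham and 16.8, 13.2 and 102 in Vanillin. Its difference was 0.98 (SE 0.45), 0.34 without that array, 1.70 with a pseudocount of 1 and 0.48 with 64. Kctd12, an auxiliary subunit of GABA-B receptors, was higher in every Vanillin array (0.86, SE 0.06).

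The GABA-A receptor gene Gabrb1 was lower with vanillin and close to dim, at 99.4, 115 and 109.8 in Mock, 164, 148 and 149 in Sham and 55.3, 50.8 and 50.8 in Vanillin (-1.31, SE 0.06), and gave -1.54 with a pseudocount of 1 and -0.90 with 64. The neuronal filament gene Prph was at 373, 446 and 421 in Mock, 309.6, 272 and 298 in Sham and 174, 157 and 136 in Vanillin, with Mock highest and Vanillin lowest (-0.86, SE 0.10). The adhesion gene Ncam1 (-0.80, SE 0.06), Bex2 (-0.80, SE 0.12), the urotensin receptor Uts2r (-0.81, SE 0.19) and the sperm channel gene Catsper4 (-0.90, SE 0.28) were lower. The Vanillin arrays were apart in Uts2r, at 519, 271 and 310, and Vanillin 1 lay within the Mock range. In Catsper4 they were at 51.6, 47 and 13, and the difference was -0.51 without Vanillin 3. The 2 other Catsper4 probes gave -0.41 and 0.14. The 14 enteric neuron and glia markers summed to 10194 to 10942 in Mock, 12584 to 13227 in Sham and 8307 to 8962 in Vanillin. Of the 13 besides Prph, 2 rose, 4 fell and 7 did not pass in limma's test.

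The odorant receptor genes Olfr731 (1.59, SE 0.67) and Olfr630 (1.45, SE 0.34) and the receptor trafficking gene Rtp3 (1.26, SE 0.26) were higher, and Olfr266 (-0.84, SE 0.24) was lower. Such receptors are best known from the nose. The Vanillin arrays of Olfr266 were apart, at 178, 68.8 and 109, and its difference was -0.54 without Vanillin 2. Olfr630 was dim in Mock (5.67, 6.67 and 6.67) and in Sham (3.67, 43.8 and 8.89), and stood at 70.2, 72.1 and 63.2 in Vanillin. Olfr731 was at 81.8, 6.67 and 99 in Mock, 9.22, 95.5 and 18.6 in Sham and 117, 127 and 122 in Vanillin. Its Mock and Sham arrays ranged from dim to nearly the Vanillin level, which itself was tight. Rtp3 was at 7.67, 18.7 and 36.1 in Mock, 14.8, 31.2 and 22 in Sham and 77, 76.9 and 71.3 in Vanillin, and gave 1.74 with a pseudocount of 1, 0.69 with 64 and -0.05 on its other probe. The remaining 17 genes have varied or unknown roles, and 15 of them were lower. The largest differences were in the clone 5033404E19Rik (-1.41, SE 0.06), the clone B230217C12Rik (1.19, SE 0.33), Atp6ap1l (-1.08, SE 0.29, and -0.72 on its other probe), Trim46 (-1.01, SE 0.09, and -0.10 on its other probe) and Ccpg1os (-1.01, SE 0.07). The Vanillin arrays of Atp6ap1l were apart, at 132, 38.6 and 66.2. The Sham arrays of B230217C12Rik were at 7.89, 44.8 and 52.2, and its difference was 0.71 without Sham 1. Ankfn1, Cpn2, Ston1, 4931414P19Rik, Ttll6, Rbm24, Oxld1, Zgpat, Lrrc51, H2aw and Gm53 had differences of -0.97 to -0.81, and A930007I19Rik was higher by 0.84. A second, brighter Cpn2 probe gave -0.06. Other probes gave 0.43 for Ankfn1, -0.22 for H2aw, and -0.47 and -0.53 for Lrrc51.

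Other probes of the same genes went through the same rule on the same arrays and did not meet it. Their sizes are partly limited by that, so they are no independent view. Besides Nipal3, 20 of the genes have 24 further probes, and 19 of these differed in the direction of the chosen probe and 5 in the opposite one. Only 7 did so by at least 0.5, and 10 were under 0.2 in size. Ankfn1 (0.43 against -0.97) and Isg20 were among those with a probe of the opposite sign. Sham and Mock differed by more than 0.5 on other probes of Kcnj11 (-1.84), Isg20 (-0.70 and -0.55), Stx11 (0.70), Atp6ap1l (0.65) and H2aw (-0.54). For these genes, Sham near Mock holds for the chosen probe only. The remaining 83 genes have a single probe.

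The limits cut through a continuous range. Just inside the limit of 0.8 were Bex2 (-0.800), Ncam1 (-0.801) and Il17f (0.802), and just outside it were Creb3l4 (-0.799), Ces1b (-0.796) and Dynap (0.795). Just inside the Sham minus Mock limit were Ifit3b (0.499), Best2 (-0.498) and Trim46 (0.494), and just outside were Diras1 (-0.504), Vwde (-0.513) and Alx4 (-0.515). A further 8 named probes met both sizes but had overlapping arrays, among them Olfr1182 (1.77), Ndufaf5 (1.70) and Dusp18 (-1.55). When any 1 Sham or Vanillin array was left out, 65 of the 105 kept a difference of at least 0.8 and 40 did not. Those under 0.5 were Kcnj11 and Rimbp2. The group mean was below 50 in all groups for 4 of the 105 and in at least 1 group for 13.

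**Figure D5:**
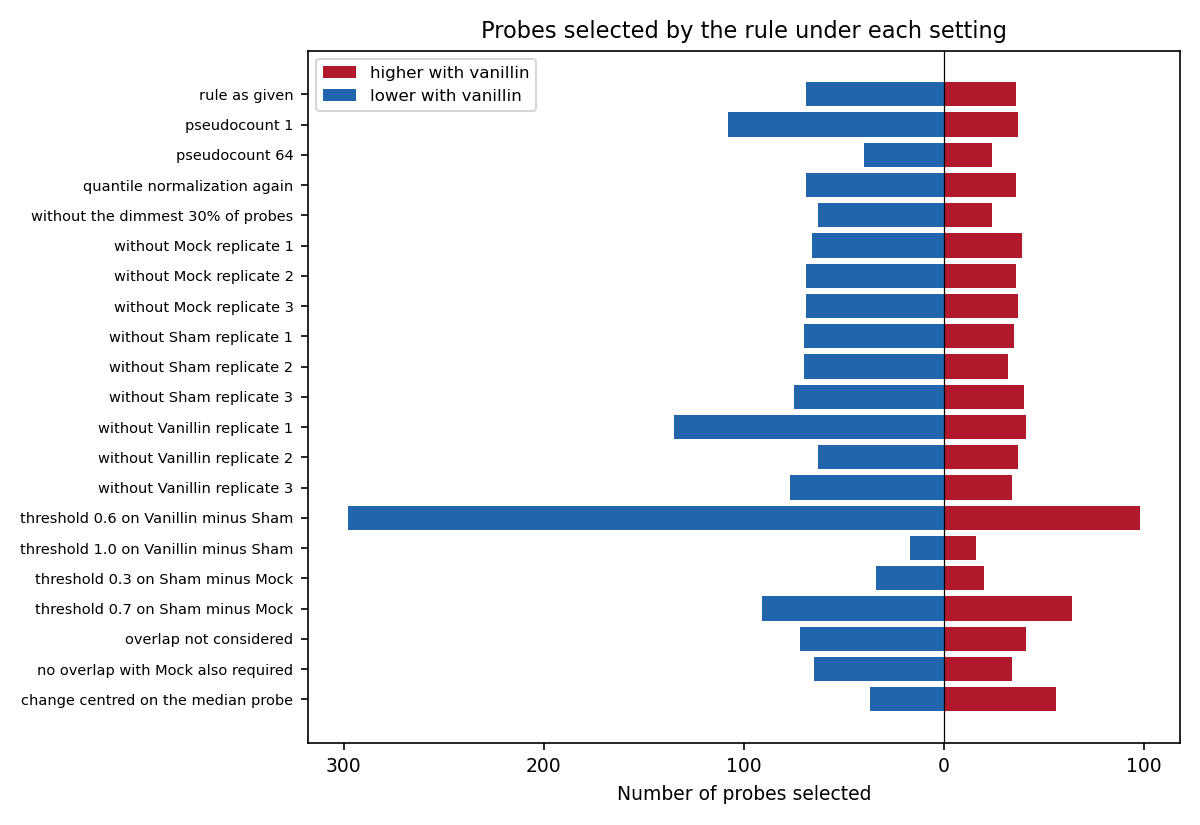
Number of probes the rule takes, higher (above 0) and lower (below 0) with vanillin, as chosen and under each other setting. The choice gave 36 and 69; leaving out Vanillin 1 gave 41 and 135, a limit of 0.6 gave 98 and 298, and centring on the median probe gave 56 and 37.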

How the data were processed

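Single-colour (Cy5) array signals of colon RNA were used as the authors deposited them, as background-subtracted, normalized intensity on a linear scale. The submitters' processing notes name limma, with no role or version. Normalization steps are otherwise not given in the sources used here; sorted values nearly coincide across the 9 arrays, as after quantile normalization. Probe names came from the platform's table, updated through RefSeq (GRCm38.p6), which replaced 10 symbols among the chosen probes.

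Negative values were set to 0 and log2(intensity + 16) was taken. The 105 probes were chosen from all 9 arrays, and the members and gene lists were chosen with earlier results of these data known, so the 105 carry no p-value. Their SE is limma's moderated one, which pools the spread of all 3 groups and is the same in each comparison of a probe. Other genes were tested with limma 3.58.1 in R 4.3.3 (3 group means, eBayes without trend, two-sided, Benjamini-Hochberg over 26423 probes, adjusted p of 0.05), each by its brightest probe; it was tested on simulated data. Named were the 20 largest increases and decreases with an informative symbol, members of the 42 lists, up to 4 others per list with at least 2 members, neighbours of the limits, and the other members within role groups assigned after their values were seen. Adrm1, Psmd14 and Ifit1 were also chosen after their values were seen.

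Deviations of same-numbered Sham and Vanillin arrays from their group means correlated at 0.13 to 0.20, and differently numbered ones at -0.20 to 0.00. The labels give replicate numbers and state no pairing. The main fit, which gave every SE and p-value above, has no replicate term. A block on these numbers was run as an alternative only. For Mock, same-numbered arrays gave -0.29 to -0.02. Alternatives were other pseudocounts, limits, scalings and dim-probe filters, a replicate block, array weights and leaving out each array. Figures used matplotlib 3.10.9 in Python 3.11.15.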

Additional observations from a re-analysis of the deposited data

How the results depend on the processing

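The number of chosen probes depended on the limits, as their construction implies. In place of 105, the rule took 396 with a limit of 0.6 on Vanillin minus Sham, 33 with a limit of 1.0, and 54 with a limit of 0.3 on Sham minus Mock. A pseudocount of 64 gave 64, of which 62 were among the 105, and dim probes were those most moved by it. Leaving out 1 array gave 100 to 176, the highest without Vanillin 1. Of the 105, 52 were taken whichever array was left out, and 34 held under these settings, both other pseudocounts and centring on the median probe. Centring, chosen after seeing the data, moved the share of higher among called probes from 32.7% to 49.7% in Vanillin minus Sham and from 61.1% to 49.7% in Sham minus Mock.

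With the replicate block, probes called were 12269 for Vanillin against Sham (12659 without it), 15498 for Sham against Mock (15787) and 13021 for Vanillin against Mock (13404). With only the 6 arrays compared and the block, chosen after seeing the data, they were 11587, 15267 and 11455. Of the 61 other genes of the MAP kinase, goblet cell and xenobiotic lists, 35 were called, against 33 with the block, 32 with the block in 6 arrays, and 30 to 35 when 1 array was left out. The share called over all probes was 47.9%. The block changed no call of the 12 genes named with a p-value from these lists. Map3k12, Cass4, Fbxo15, Rtp3, Rimbp2, Olfr630, Olfr731 and the microRNA genes had dim values in some or all arrays. Whether dimness or the number of arrays limits these genes was not tested.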
